A study of Mus musculus with 6 samples.

Results

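Macrophage marker genes were followed in bulk RNA from reprogramming mouse embryonic fibroblasts (MEFs), to see what RNA of immune cells the cultures held and whether it differed between the groups. The 10 genes *Ptprc*, *Cd68*, *Csf1r*, *Adgre1*, *Cd14*, *Lyz2*, *Tyrobp*, *Fcer1g*, *C1qa* and *C3ar1* were taken by symbol from the 54331 genes measured. They are known markers that were selected on the measured TPM of these same libraries and the contrast of OSKA + 4OHT with OSKA − 4OHT, which had already been seen, so the difference between the groups is described for them and not tested. All 10 were found, all 10 were above 0 in all 6 libraries, and all 10 were among the 15382 genes tested, which averaged 1 TPM or more over the libraries. TPM, a share of all transcripts in the library, is a level per transcript length, so levels of different genes can be set side by side. For short transcripts this holds only roughly, since the most common value was shared by transcripts of 500 to 750 bases.

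The OSKA + 4OHT group and the OSKA − 4OHT group held 3 wells each. Both were made from MEFs of mixed male mid-gestation embryos that carried an Oct4-EGFP transgene on a mixed background of C57BL/6, DBA/2 and ICR, and both were infected with retroviruses for Oct4, Sox2, Klf4 and AKT-MER. AKT-MER is myristoylated AKT joined to a modified estrogen receptor, which 4-hydroxytamoxifen (4OHT) switches on. The OSKA + 4OHT wells received 4OHT and the OSKA − 4OHT wells received the ethanol vehicle, and RNA of the whole culture, reprogrammed cells or not, was taken at 10 days post infection (dpi). No group without AKT-MER and no sorted macrophages are among these 6 libraries. By the paper's protocol, infected cells were split between wells with and without 4OHT. The sources used here name no separate MEF preparations or infections for the wells. The spread between wells may therefore be technical, and p-values measure only that spread.

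Macrophages are phagocytes that settle in most tissues of the embryo, connective tissue included, and a fibroblast preparation made from minced embryos can carry some of them along. They depend on the receptor CSF1R and its ligands CSF1 and IL-34, sense microbes through CD14 and TLR4, take up dying cells with the help of complement C1q, and digest what they take up in lysosomes. Many of their activating receptors have no signalling tail of their own and pair with the adaptors TYROBP (DAP12) or FCER1G (the Fc receptor gamma chain). The factor PU.1, encoded by *Spi1*, drives many macrophage genes and binds DNA with a GGAA core.

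To show the stretch in which such a core would be looked for, bases 250 to 51 before the annotated start are printed (RefSeq, GRCm38.p6). They are given for the 4 members whose window lies outside the annotated span of that same gene. Overlap with other genes was not checked. For *Cd68*, the bases just after this start were not found in the GENCODE transcripts of the gene. Capitals mark GGAA on either strand, which reads TTCC where it lies on the other one. The window of *Lyz2* (chr10:117282323-117282522, minus strand) holds 4 matches, that of *C3ar1* (chr6:122856208-122856407, minus strand) 3, that of *Cd68* (chr11:69666221-69666420, minus strand) 3 and that of *Fcer1g* (chr1:171234400-171234599, minus strand) 2.
Lyz2: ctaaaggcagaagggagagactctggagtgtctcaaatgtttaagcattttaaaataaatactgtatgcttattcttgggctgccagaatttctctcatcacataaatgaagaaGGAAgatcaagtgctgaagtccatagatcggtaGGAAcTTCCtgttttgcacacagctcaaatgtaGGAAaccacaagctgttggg
C3ar1: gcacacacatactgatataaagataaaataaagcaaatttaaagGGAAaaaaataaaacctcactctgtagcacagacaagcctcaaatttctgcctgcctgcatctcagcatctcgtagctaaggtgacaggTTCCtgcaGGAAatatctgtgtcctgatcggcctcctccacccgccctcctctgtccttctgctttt
Cd68: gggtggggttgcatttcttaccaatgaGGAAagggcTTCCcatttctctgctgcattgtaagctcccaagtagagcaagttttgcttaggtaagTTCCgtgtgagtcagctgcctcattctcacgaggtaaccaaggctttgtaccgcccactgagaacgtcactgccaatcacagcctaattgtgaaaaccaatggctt
Fcer1g: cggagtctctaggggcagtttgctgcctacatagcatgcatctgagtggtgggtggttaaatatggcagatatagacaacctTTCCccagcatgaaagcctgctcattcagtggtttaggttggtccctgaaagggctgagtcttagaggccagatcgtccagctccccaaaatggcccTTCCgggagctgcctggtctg
GGAA is short and was found in 89.2% of the 32851 windows of the same length in the RefSeq table, so its presence does not set these genes apart. The longer GAGGAA, which contains it, was found in 18.8% of all windows and, among the 6 windows of the 5 members with an entry, in 1 of *Cd68* and 1 of *Ptprc*. These are matches of letters and not measured binding sites.

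The libraries differed in depth. The most common value above 0 in a library is what 1 read is worth on a transcript of 500 to 750 bases, and it lay between 1.67 and 3.47 TPM. With OSKA − 4OHT replicate 2 set to 1, the relative depth was 0.482 in replicate 1 and 0.629 in replicate 3 of that group, and 0.919, 0.977 and 0.815 in OSKA + 4OHT replicates 1, 2 and 3. By this scale, which is approximate for longer transcripts and covers counting error only, *Lyz2* rested on 78.2 to 159 reads in a library, *Adgre1* on 4.61 to 58.3, and *Tyrobp* on only 2.0 to 7.92. All read numbers are rough, and they are upper estimates where a gene has several transcripts, since the longest was used. The other 7 genes had between 3.67 and 35.0 reads in each library. At a few reads per library, counting error alone is large beside the values.

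**Figure D1:**
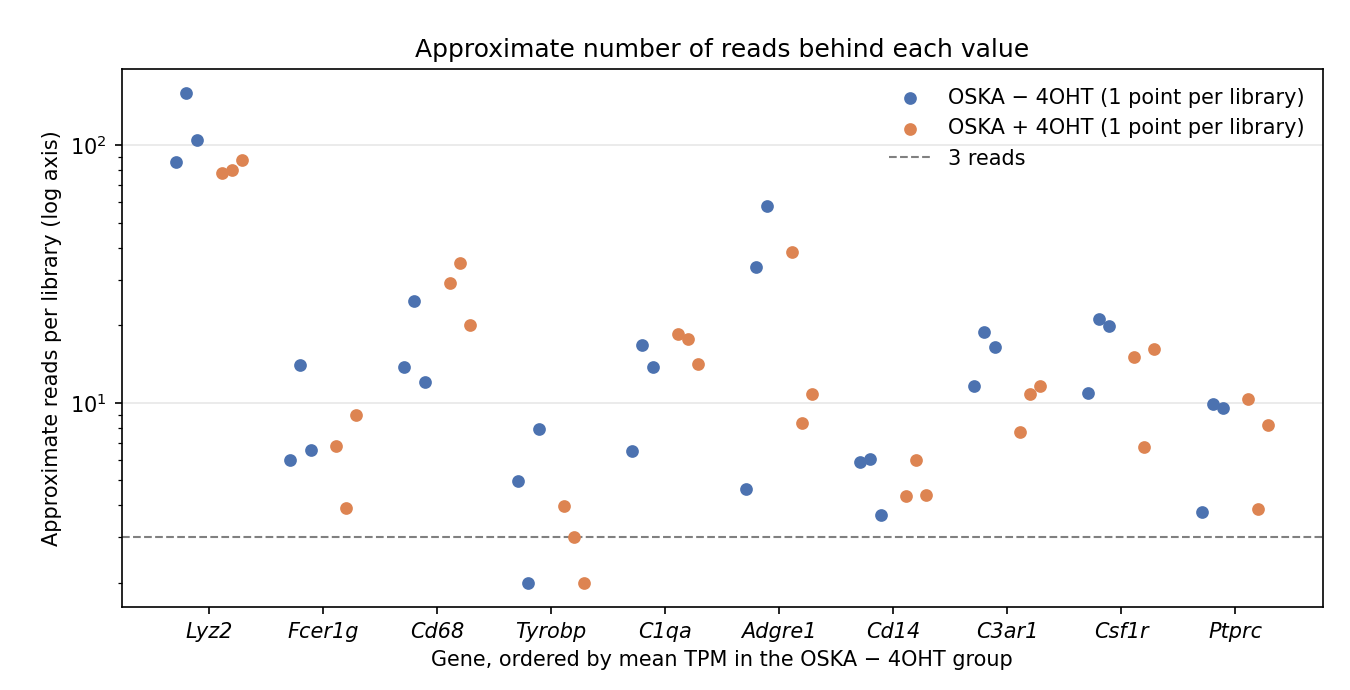
Approximate reads (log axis) behind each value of the 10 macrophage marker genes, 1 point per library, with OSKA − 4OHT in blue and OSKA + 4OHT in orange. *Lyz2* stands at 78.2 reads or more in every library, and *Tyrobp* is at or under the dashed line of 3 reads in 3 libraries.

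*Lyz2* stood far above the other markers in every well. *Lyz2* encodes the lysozyme of macrophages and other myeloid cells, an enzyme that cuts bacterial cell walls (chr10:117277331-117282321, minus strand, GRCm38). It was at 101, 90.1 and 94.3 TPM in the OSKA − 4OHT wells, replicates 1 to 3, and at 48.2, 46.5 and 60.7 TPM in the OSKA + 4OHT wells. The groups did not overlap, and every OSKA + 4OHT well was lower. The group means came to 95.2 ± 5.63 TPM without 4OHT and 51.8 ± 7.77 TPM with it (SD, n = 3 each). On the log2(TPM + 0.5) scale the fold change was -0.88 (SE 0.155). Its mean over all libraries was above that of 87.4% of the genes tested. Of the 1267 distinct stretches of 50 bases in its transcripts, 195 also occur in *Lyz1*, the lysozyme of Paneth cells, which was listed at 0 in all 6 libraries.

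Receptors of the cell surface were low. *Csf1r*, the receptor on which macrophage survival depends, is on chromosome 18 and overlaps *Hmgxb3* on the opposite strand. It was at 3.06, 2.88 and 4.29 TPM in the OSKA − 4OHT wells and at 2.22, 0.935 and 2.71 TPM in the OSKA + 4OHT wells. The groups did not overlap, with the OSKA + 4OHT wells lower, although the gap between 2.88 and 2.71 TPM was smaller than the spread within either group. The log2 fold change was -0.74 (SE 0.433).

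*C3ar1*, the receptor for the complement fragment C3a (chr6:122847138-122856161, minus strand), was at 3.60, 2.81 and 3.91 TPM without 4OHT and at 1.25, 1.65 and 2.12 TPM with it. Again all OSKA + 4OHT wells were below all OSKA − 4OHT wells. The group with 4OHT averaged 1.67 ± 0.436 TPM and the group without it 3.44 ± 0.568 TPM (SD, n = 3 each), and the log2 fold change was -0.87 (SE 0.354).

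*Adgre1* encodes F4/80, the surface protein by which mouse macrophages are most often stained (chr17:57358691-57483527, plus strand). It varied most of the 10 genes. The OSKA − 4OHT wells were at 1.93, 6.83 and 18.7 TPM and the OSKA + 4OHT wells at 8.45, 1.72 and 2.69 TPM. The highest and nearly the lowest value both came from OSKA − 4OHT wells, and the groups overlapped. The log2 fold change of -0.81 was smaller than its SE of 0.86, and it went from -1.58 without OSKA − 4OHT replicate 1 to -0.08 without OSKA − 4OHT replicate 3.

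*Cd14*, the co-receptor that hands lipopolysaccharide to TLR4, is on chromosome 18 and was at 5.32, 2.62 and 2.53 TPM without 4OHT and at 2.05, 2.66 and 2.33 TPM with it. Only OSKA − 4OHT replicate 1 stood above the rest, and the other 5 wells lay close together. With that well left out, the log2 fold change of -0.43 (SE 0.385) became -0.12.

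*Ptprc* encodes CD45, the phosphatase on the surface of nearly all nucleated blood cells (chr1:138062861-138175708, minus strand). It was the lowest of the 10 genes, at 0.858, 1.09 and 1.67 TPM in the OSKA − 4OHT wells and at 1.24, 0.435 and 1.11 TPM in the OSKA + 4OHT wells. The groups overlapped, and only 1.38% of the genes tested had a lower mean over all libraries. The log2 fold change was -0.28 (SE 0.561), and without OSKA + 4OHT replicate 2 it was 0.001.

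The adaptors were of middling level. *Fcer1g* (chr1:171229572-171234365, minus strand) was at 20.8, 23.4 and 17.5 TPM in the OSKA − 4OHT wells and at 12.4, 6.69 and 18.4 TPM in the OSKA + 4OHT wells. OSKA + 4OHT replicate 3 reached into the range of the OSKA − 4OHT wells, and the other 2 wells with 4OHT were below it. The log2 fold change was -0.80 (SE 0.369).

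*Tyrobp* (chr7:30413760-30417585, plus strand) was at 17.2, 3.35 and 21.1 TPM without 4OHT and at 7.25, 5.13 and 4.11 TPM with it. OSKA − 4OHT replicates 1 and 3, the 2 shallowest libraries, were above all others, whereas replicate 2, the deepest, was below all. The log2 fold change of -0.96 had an SE of 0.672 and rested on few reads. Summed per well, the 2 adaptors were at 38.0, 26.8 and 38.5 TPM against 19.7, 11.8 and 22.5 TPM, which did not overlap. Each adaptor alone overlapped between the groups, and both were picked with this contrast in view, so nothing is read from the sum.

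*C1qa* and *Cd68* did not share the lower level in the OSKA + 4OHT wells. *C1qa*, the A chain of complement C1q (chr4:136895917-136898803, minus strand), was at 10.3, 12.8 and 16.7 TPM without 4OHT and at 15.4, 13.8 and 13.3 TPM with it. All 3 OSKA + 4OHT values lay inside the range of the OSKA − 4OHT wells, and the log2 fold change was 0.12 (SE 0.227). Its sign turned under 2 of the 14 settings tried, to -0.06 after quantile normalization and to -0.05 without OSKA − 4OHT replicate 1.

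*Cd68*, a glycoprotein of the lysosomal membrane (chr11:69664213-69666153, minus strand), was at 17.5, 15.4 and 11.8 TPM in the OSKA − 4OHT wells and at 19.7, 22.1 and 15.2 TPM in the OSKA + 4OHT wells. The groups overlapped, with 2 OSKA + 4OHT wells above all OSKA − 4OHT wells. The log2 fold change was 0.34 (SE 0.235). It was the one member whose value was higher with 4OHT under all 14 settings. Like other lysosomal proteins, CD68 is also made at some level by cells that are not macrophages, fibroblasts included.

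**Figure D2:**
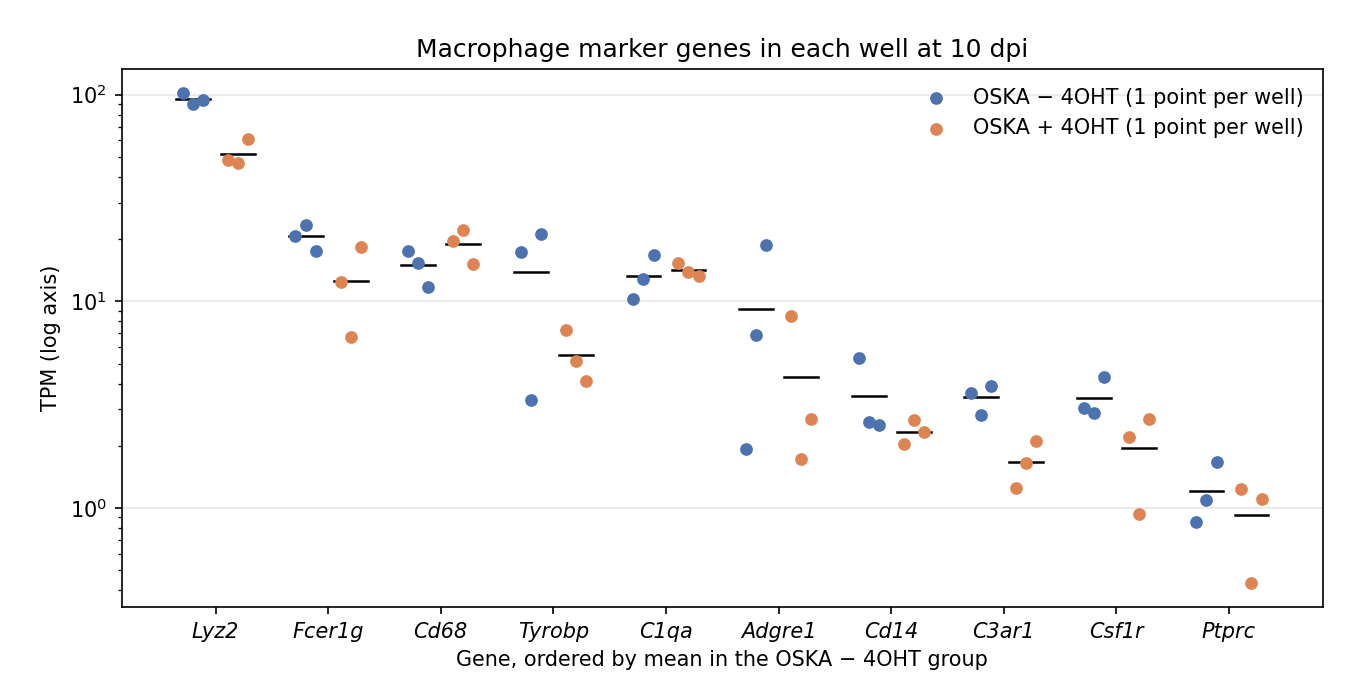
TPM (log axis) of the 10 genes in each of the 6 wells, 1 point per well, with black bars at the group means and genes ordered by their mean in the OSKA − 4OHT group (blue). The OSKA + 4OHT wells (orange) are wholly below the OSKA − 4OHT wells for *Lyz2*, *C3ar1* and *Csf1r* and overlap them for the other 7 genes.

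Ordered by mean level, the OSKA − 4OHT group ran *Lyz2*, *Fcer1g*, *Cd68*, *Tyrobp*, *C1qa*, *Adgre1*, *Cd14*, *C3ar1*, *Csf1r* and *Ptprc*. In the OSKA + 4OHT group the order was *Lyz2*, *Cd68*, *C1qa*, *Fcer1g*, *Tyrobp*, *Adgre1*, *Cd14*, *Csf1r*, *C3ar1* and *Ptprc*. In both groups only *Lyz2* at the top and *Ptprc* at the bottom were separated from their neighbour in this order. The wells of all other neighbours overlapped. *Tyrobp* and *Fcer1g* have short transcripts, so their places in the order are approximate.

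The 10 genes together gave less RNA in the OSKA + 4OHT wells. Their summed level was 182, 161 and 192 TPM in OSKA − 4OHT replicates 1, 2 and 3 and 118, 102 and 123 TPM in OSKA + 4OHT replicates 1, 2 and 3. The groups did not overlap, and the ratio of the means was 0.639. *Lyz2* alone made up between 49.0% and 55.9% of the sum without 4OHT and between 40.8% and 49.5% with it. Without *Lyz2* the sums were 80.6, 71.1 and 98.1 TPM against 69.9, 55.1 and 61.9 TPM, still with no overlap, but at the closest 71.1 against 69.9 TPM, and with a ratio of 0.748. In RNA of a whole culture, fewer macrophages and less of this RNA per macrophage cannot be told apart. Neither can be told from less of this RNA in other cells. Since TPM is a share of the library, more RNA of other genes cannot be told apart from these either.

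**Figure D3:**
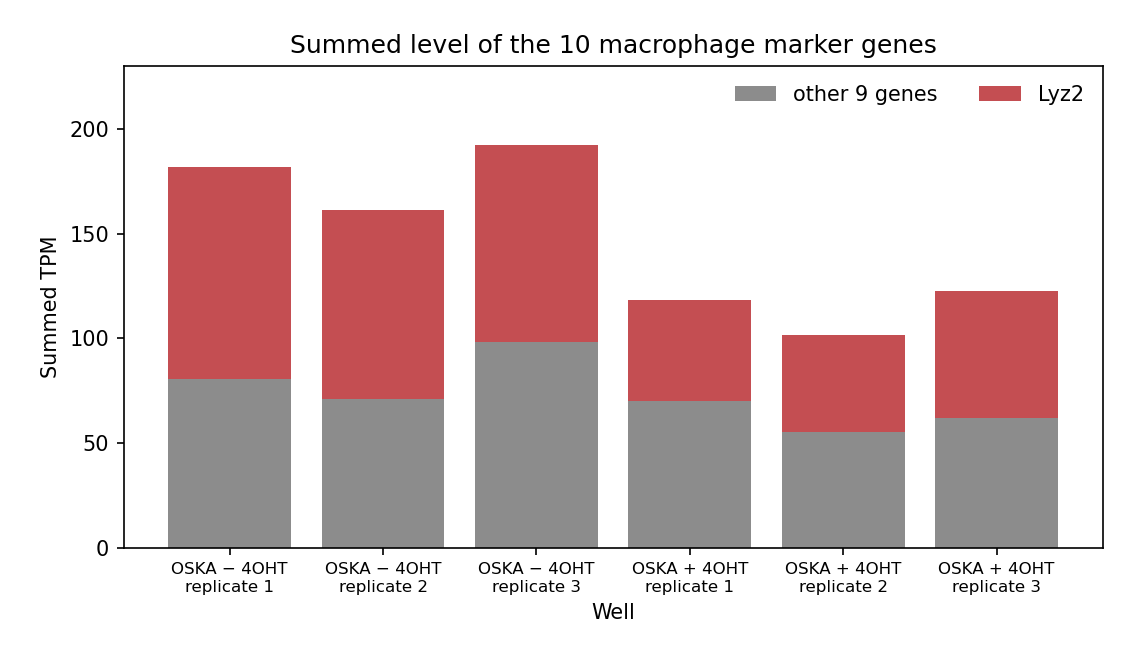
Summed TPM of the 10 macrophage marker genes in each of the 6 wells, with *Lyz2* in red on top of the other 9 genes in grey. The 3 OSKA − 4OHT wells reach 161 to 192 TPM and the 3 OSKA + 4OHT wells 102 to 123 TPM.

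Of the 10 genes, 3 were lower in all OSKA + 4OHT wells than in all OSKA − 4OHT wells, where 10.0% of all genes tested were. None was higher in this way, where 18.1% of all genes were (28.2% in either direction). The fitted difference was below 0 for 8 of the 10, against 40.7% of all genes, and the median log2 fold change was -0.77, against 0.14 over all genes. No member met the call used for all genes, a Benjamini-Hochberg adjusted p-value under 0.05 in limma-trend and an absolute log2 fold change above 1, which 4.23% of the genes tested met (2.87% higher, 1.37% lower). With an adjusted p-value under 0.05 alone the count was 1 member (*Lyz2*, lower), against 5.49% of all genes (3.52% higher, 1.97% lower), and with an unadjusted p-value under 0.05 it was 2 (*Lyz2* and *C3ar1*, both lower), against 21.3% of all genes. Since the members were picked with this contrast in view, nothing is read from these counts.

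The genes that work directly with the members lay on both sides of 0. The list of 20 partners holds ligands, co-receptors, chains of the same complex and receptors that signal through the adaptors, and 17 of them were tested. None was called. By limma-trend without the fold threshold, 1 had an adjusted p-value under 0.05, and 1 (*Lbp*) was higher and 4 (*Il34*, *Tlr4*, *C5ar1* and *Clec5a*) were lower at an unadjusted p-value under 0.05, which 14.1% and 7.18% of all genes were. Their median log2 fold change was -0.17, and their summed level was 481 to 544 TPM without 4OHT and 473 to 544 TPM with it.

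*Lbp*, the serum protein that carries lipopolysaccharide to CD14, was the partner that passed on the p-value. It was at 34.5, 34.9 and 33.7 TPM in the OSKA − 4OHT wells and at 68.3, 63.2 and 72.3 TPM in the OSKA + 4OHT wells. The groups were far apart, but the log2 fold change of 0.97 (SE 0.133; adjusted p = 0.0143, limma-trend with Benjamini-Hochberg adjustment) was just short of the fold threshold. With each well left out in turn the adjusted p-value ran from 0.0457 to 0.0729, and it stayed under 0.05 in 3 of the 6 fits. *Tlr4*, the receptor that signals for CD14, was at 20.1, 11.8 and 9.43 TPM against 8.38, 6.22 and 5.21 TPM, a log2 fold change of -0.96 (adjusted p = 0.171, limma-trend). *Ly96*, which encodes the TLR4 partner MD-2, had means of 18.2 and 16.0 TPM.

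The ligands of CSF1R were far more abundant than the receptor. *Csf1* was at 66.9, 30.2 and 58.7 TPM without 4OHT and at 63.1, 60.8 and 39.8 TPM with it, with overlapping groups and a log2 fold change of 0.12 (adjusted p = 0.877, limma-trend). *Il34* was at 142, 98.3 and 75.2 TPM against 51.9, 61.5 and 73.1 TPM, lower with 4OHT without overlap, but the log2 fold change of -0.72 did not pass the test (adjusted p = 0.185, limma-trend). Fibroblasts are a known source of CSF1.

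The B and C chains of C1q lie beside *C1qa* on chromosome 4, and the 3 genes are known to be transcribed together in macrophages. *C1qb* was at 17.2, 6.53 and 11.97 TPM and at 9.04, 9.57 and 6.79 TPM, and *C1qc* at 11.1, 11.8 and 16.5 TPM and at 10.1, 13.48 and 8.07 TPM, each without and with 4OHT. Both overlapped between the groups. Summed, the 3 chains were at 38.6, 31.1 and 45.1 TPM against 34.5, 36.9 and 28.1 TPM, a ratio of 0.866 with overlap. The proteases *C1ra* (59.3 and 71.9 TPM) and *C1s1* (144 and 121 TPM), which fibroblasts also make, were not called. *C3*, from which the ligand of C3AR1 is cut, had means of 26.4 ± 20.1 and 54.0 ± 21.9 TPM (SD, n = 3 each) and a log2 fold change of 1.18 (adjusted p = 0.275, limma-trend).

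Among receptors related to the members, *C5ar1*, which binds the complement fragment C5a, was at 1.81, 3.15 and 3.72 TPM without 4OHT and at 1.03, 1.201 and 0.854 TPM with it. *Clec5a*, which signals through TYROBP, was at 4.38, 1.99 and 2.66 TPM against 1.02, 0.499 and 1.22 TPM. Both were lower in all OSKA + 4OHT wells, with log2 fold changes of -1.11 and -1.29 that did not pass (adjusted p = 0.21 and 0.191, limma-trend). *Trem2*, another partner of TYROBP, had means of 3.86 and 3.49 TPM.

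Receptors for immunoglobulin G lay on both sides of 0, and none passed the test. *Fcgr1*, which needs FCER1G, was at 0.390, 0.179 and 0.630 TPM and at 0.641, 3.44 and 4.12 TPM, higher with 4OHT in all wells but at the closest 0.641 against 0.630 TPM (log2 fold change 1.64, adjusted p = 0.256, limma-trend). *Fcgr3*, which also pairs with FCER1G, had means of 4.76 and 2.85 TPM (log2 fold change -0.63), and the inhibitory *Fcgr2b*, which does not need it, 19.1 and 24.8 TPM (0.38). *Syk*, the kinase that both adaptors recruit, had means of 5.41 and 5.69 TPM. *Fcgr4* and *Sirpb1a* were below the filter.

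**Figure D4:**
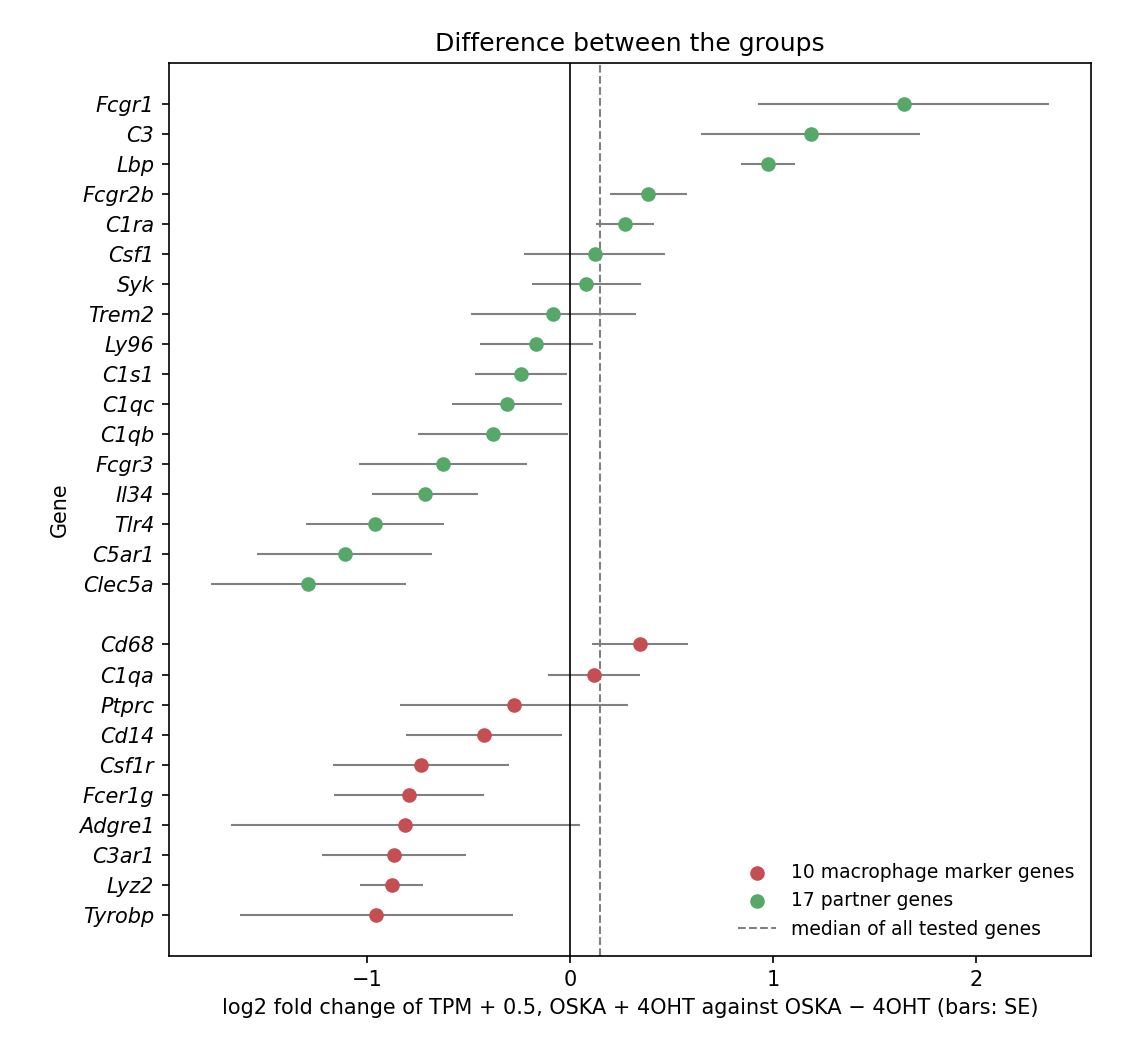
Log2 fold change of TPM + 0.5 between OSKA + 4OHT and OSKA − 4OHT for the 10 macrophage marker genes (red, a description) and the 17 partner genes tested (green), with bars for the SE and a dashed line at the median of all genes tested (0.14). The markers run from -0.96 (*Tyrobp*) to 0.34 (*Cd68*), and the partners from -1.29 (*Clec5a*) to 1.64 (*Fcgr1*).

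Macrophage genes other than these 10 were also present, but not every defining marker. Of 30 other macrophage genes, 16 were above 0 in all libraries and 4 were listed at 0 in all 6, namely *Cd163*, *Vsig4*, *Timd4* and *Ncf4*, the first 3 of which mark resident macrophages of adult tissues. None of the 19 tested was called, 2 were higher (*Lgals3* and *Clec4e*) and 1 lower at an unadjusted p-value under 0.05 in limma-trend, no larger a share than the 14.1% and 7.18% of all genes, and their median log2 fold change was -0.10. *Lgals3*, which encodes galectin-3, had the highest level of this list, at 136, 143 and 118 TPM without 4OHT and at 591, 169 and 387 TPM with it (log2 fold change 1.36, adjusted p = 0.14, limma-trend). With each well left out in turn the adjusted p-value of *Lgals3* ran from 0.0342 to 0.287 (limma-trend). It was under 0.05 only without OSKA + 4OHT replicate 2. *Lgals3* is made by many cell types, MEFs included. The gene took most of the list's summed level of 207 to 250 TPM without 4OHT and 248 to 680 TPM with it. *Ctss*, a lysosomal protease of antigen-presenting cells, had means of 15.2 and 13.8 TPM.

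*Spi1* itself was near the limit of detection, at 3.47, 0.371 and 0.922 TPM in the OSKA − 4OHT wells and at 0.424, 1.27 and 0.674 TPM in the OSKA + 4OHT wells. It belongs to 8 macrophage transcription factors, of which 5 were tested, none was called and 1 was lower at an unadjusted p-value under 0.05 in limma-trend (median log2 fold change -0.25). That gene was *Runx1*, which acts in blood formation and also in mesenchymal cells, at 16.0 ± 5.38 and 6.61 ± 0.912 TPM (SD, n = 3 each; adjusted p = 0.0711, limma-trend). *Cebpb* had means of 15.6 and 12.7 TPM.

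Genes shared by many leukocytes had mostly lower fitted values with 4OHT. Of 20 such genes 15 were tested, 12 of them had a fitted difference below 0, against 40.7% of all genes, and the median log2 fold change was -0.74, against 0.14 over all genes. Their summed level was 240 to 256 TPM without 4OHT and 133 to 186 TPM with it. In 5 of them all OSKA + 4OHT wells were lower, as in 10.0% of all genes. None was called lower (1.37% of all genes), and 4 (*Cd53*, *Plek*, *Laptm5* and *Arhgdib*) were lower at an unadjusted p-value under 0.05 in limma-trend (7.18% of all genes). *Arhgdib*, a regulator of small GTPases in blood cells, had means of 91.2 and 59.6 TPM (adjusted p = 0.0994, limma-trend), and *Laptm5*, a lysosomal membrane protein of leukocytes, 62.9 and 38.1 TPM (adjusted p = 0.152, limma-trend).

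The one gene called in this list went the other way. *Ptpn6*, which encodes the phosphatase SHP-1 and is transcribed in epithelial cells as well as in blood cells, was at 1.61, 1.96 and 1.69 TPM without 4OHT and at 5.58, 6.17 and 8.41 TPM with it. It rose by 1.66 on the log2 scale (SE 0.295, adjusted p = 0.0308, limma-trend), but with any of the 6 wells left out the adjusted p-value was between 0.0747 and 0.114.

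Markers of other blood cells and of endothelium were looked up in the same libraries. Of 15 T, B and NK cell genes, 2 (*Lck* and *Pax5*) were above 0 in all libraries and 6 were listed at 0 in all, among them *Cd3e*, *Cd79b*, *Ncr1*, *Gzma* and *Prf1*. Their summed level was 5.82 to 10.4 TPM without 4OHT and 10.2 to 14.3 TPM with it, and the most abundant, *Cd3g* and *Lck*, had means of 4.63 and 5.02 TPM and of 2.04 and 2.48 TPM. Of 13 neutrophil and mast cell genes, 1 (*Ltf*, which epithelia also make) was above 0 in all libraries and 6 were at 0 in all, *Mpo*, *Elane*, *Camp*, *Ngp*, *Cpa3* and *Fcer1a* (sums of 16.8 to 18.0 and 17.3 to 24.4 TPM). None of the 10 erythroid and megakaryocyte genes was above 0 in all libraries (2.98 to 22.0 and 8.32 to 13.8 TPM), and 3 of 8 endothelial genes (*Pecam1*, *Kdr* and *Tek*) were (21.8 to 29.9 and 28.6 to 39.9 TPM). The most abundant of these were *Hbb-bs* (4.81 and 4.94 TPM) and *Ppbp* (2.73 and 0.858 TPM) for the former, and *Tek* (14.3 and 21.9 TPM) and *Pecam1* (9.82 and 11.2 TPM) for the latter. No gene of these 4 lists was called. *Lyz2*, *Tyrobp* and *Fcer1g* are also used by neutrophils, whose genes were in part present. *Ltf* had means of 12.8 and 11 TPM without and with 4OHT and *Ly6g*, above 0 in 5 libraries, 2.57 and 6.29 TPM, while *S100a9* was above 0 in 3 libraries and *S100a8* and *Csf3r* in 2 each. The part of neutrophils in the levels of these markers was not tested.

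**Figure D5:**
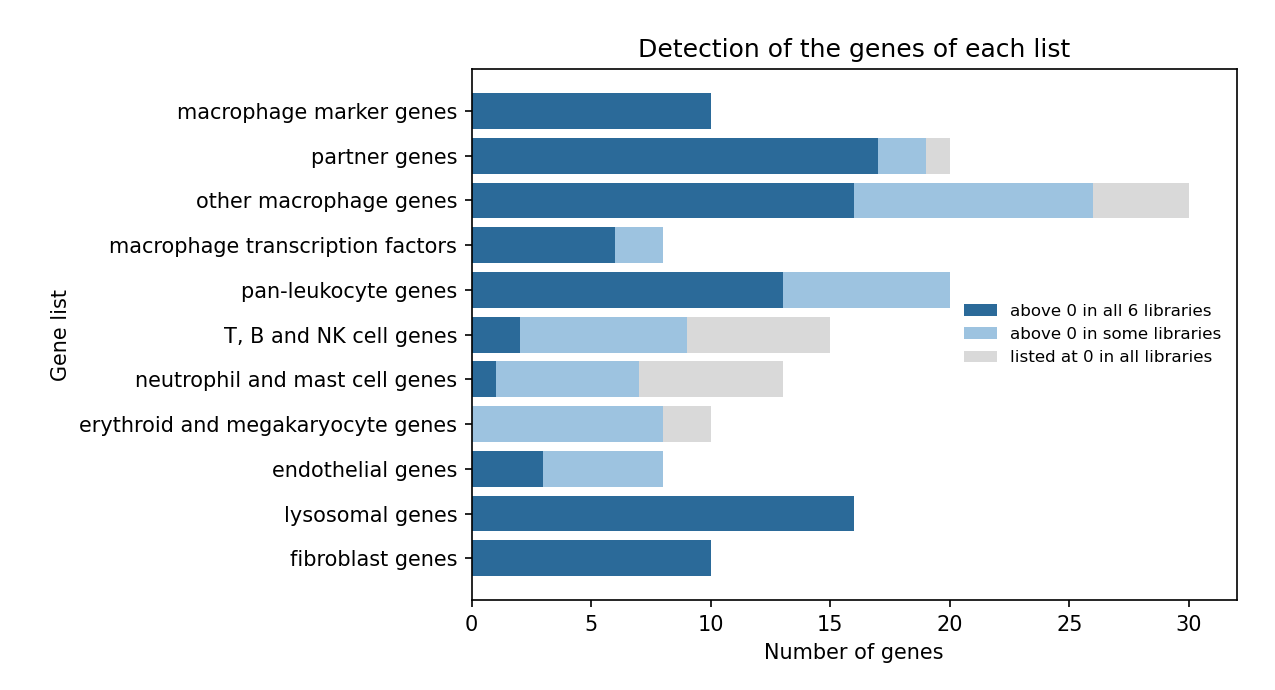
Number of genes in each of 11 lists that were above 0 in all 6 libraries (dark), in some libraries (light) or in none (grey). The 10 macrophage marker genes, chosen with their levels known, are all in the dark class, and 16 of 30 other macrophage genes, 2 of 15 T, B and NK cell genes and 1 of 13 neutrophil and mast cell genes are.

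The levels of fibroblast and lysosomal genes were set beside those of the markers. The 10 fibroblast genes summed to 7938 to 9480 TPM without 4OHT and to 5595 to 7038 TPM with it, a range below that of the OSKA − 4OHT wells as for the macrophage markers. They did not all change in 1 direction. *Lum* (7.26 and 39.1 TPM, adjusted p = 0.00392) and *Col3a1* (433 and 1023 TPM, adjusted p = 0.00582) rose and *Pdgfrb* (24.5 and 7.5 TPM, adjusted p = 0.0113) fell by limma-trend, and these 3 were called. *Fn1* (1360 and 723 TPM, adjusted p = 0.0128, limma-trend) and *Col1a2* (1641 and 901 TPM, adjusted p = 0.0285) were also lower with 4OHT but short of the fold threshold. With each well left out in turn, the adjusted p-value stayed under 0.05 in 4 of 6 fits for *Fn1* and in 1 of 6 for *Col1a2*, and it ran from 0.0333 to 0.0542 for *Pdgfrb* (above 0.05 only without OSKA + 4OHT replicate 1). *Vim*, the most abundant of the list, had means of 3844 and 2668 TPM (adjusted p = 0.163, limma-trend). The 16 lysosomal genes, read for *Cd68* and *Lyz2*, summed to 3651 to 3805 TPM and 2922 to 3364 TPM with a median log2 fold change of -0.02, and 8 of them had a fitted difference above 0 and 8 below. None of them was called, although *Ctsl* had means of 1001 and 563 TPM (log2 fold change -0.83, adjusted p = 0.0145, limma-trend). With each well left out its adjusted p-value ran from 0.0356 to 0.0722, under 0.05 in 3 of 6 fits. *Ctsd* had means of 563 and 458 TPM. The part of these values, and of depth, in the lower marker levels was not tested.

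Across the 6 libraries, the correlation of the 10 members with their common profile ran from -0.81 to 0.94. Set against the mean of the 10 standardised profiles, of which each gene is itself a part, *Csf1r* had a Pearson correlation of 0.94, *Lyz2* of 0.86, *C3ar1* of 0.81, *Ptprc* of 0.77, *Fcer1g* of 0.74, *Tyrobp* of 0.72 and *Adgre1* of 0.63. The correlation was 0.33 for *Cd14*, 0.04 for *C1qa* and -0.81 for *Cd68*. The share of other genes was counted only above 0.9, so nothing is read from these correlations. The genes outside all lists most like that mean profile were *Rcn1*, *Chmp3*, *Ppp3ca*, *Avl9* and *Elk4*, with correlations from 0.982 to 0.995. They are general cell genes, such as a calcium-binding protein of the endoplasmic reticulum (*Rcn1*) and a subunit of calcineurin (*Ppp3ca*). A correlation above 0.9 was found for 108 of 15277 genes, over 6 points that fall in 2 groups and share their libraries' depths.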

How the data were processed

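PolyA RNA from 6 wells was sequenced as single-end reads of 50 bases. The authors trimmed the reads with Trim Galore, quantified them with Salmon (versions, genome build and annotation release are not given in the sources used here) and deposited TPM per gene scaled to the same total in each library. The deposited table also holds the authors' own comparison (log2 fold change, log2 average level, F statistic, p-value), which was not used. The members and gene lists were chosen with earlier results of these data known.

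Symbols and positions came from GENCODE M21 on GRCm38 by Ensembl identifier (54097 of 54331 genes had a symbol), and upstream windows from RefSeq. Log2(TPM + 0.5) of genes averaging 1 TPM or more was fitted with limma-trend (limma 3.58.1, R 4.3.3), with Benjamini-Hochberg adjustment over all genes tested and a call at adjusted p under 0.05 and absolute log2 fold change above 1. The test was checked on simulated data. Counts, which the design had foreseen, cannot be had from TPM: between 29.8% and 42.9% of low values on short transcripts were whole multiples of 1 read (tolerance 0.002 reads). Approximate reads assume fragments of 250 bases and the longest annotated transcript. For longer transcripts they rest on a fitted factor, with 36.6% to 39.5% of low values near whole reads, against 30% by chance. Replicates correlated across genes with r of 0.809 to 0.864. Tables were made with Python 3.11.15 and pandas 2.3.3. Named genes were all members and partners, and in the other lists up to 3 called genes of largest change and the 2 highest in mean TPM, beside the 5 tested genes outside the lists most like the mean profile of the members. *Spi1*, *Fn1*, further neutrophil genes, genes listed at 0 and genes behind counts of 5 or fewer were named after their values were seen. Alternatives were other pseudocounts, no filter, TMM scaling, quantile normalization, a replicate block and leaving out each well. Results for some genes of the lists are not reported here.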

Additional observations from a re-analysis of the deposited data

How the results depend on the processing

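The count of all genes called was 441 higher and 210 lower. It was 31 and 16 with a replicate block, and 111 to 303 and 63 to 127 with each well left out. Pairing of the wells by replicate number was at most weak. Correlations of deviations were 0.0235, 0.0341 and 0.0837 for equal numbers and ran from -0.062 to 0.0327 for different ones. The median of all genes was 0.14, and moved to 0.06 with TMM scaling and to -0.01 with quantile normalization, while the share of calls that were higher went from 67.7% to 58.6% and 53.1%. *Lyz2*, *C3ar1*, *Csf1r*, *Fcer1g*, *Tyrobp*, *Adgre1* and *Cd14* had lower fitted values with 4OHT under all 14 settings, these scalings included. Members lower without overlap numbered 5 in place of 3 after quantile normalization. The call in the pan-leukocyte list was lost (0) without a filter, with the replicate block, after quantile normalization and in all 6 fits that left out a well. The fibroblast list had 0 calls in place of 3 with the replicate block and 2 to 3 with a well left out. The other macrophage genes had 0 to 1 with a well left out, the 1 being *Lgals3*. Without the fold threshold, added after seeing the data, the partners had 1 call, the lysosomal list 1 and the fibroblast list 5. The summed ratio of 0.639 was 0.748 without *Lyz2*, also added after seeing the data. The cause of these changes was not tested. *Ptprc* went from -0.28 to -0.83 after quantile normalization, and *C3ar1* from -0.87 to -1.204 there and to -0.57 with a pseudocount of 2, each beyond its spread between wells. The other list counts, the number of members with a lower fitted value (7 to 9 in place of 8 with a well left out) and the summed ratio (0.61 to 0.674 with a well left out) stayed within 1.5 times their value or within the spread. Depth limits the members: the least covered library of each member other than *Lyz2* held 2.0 to 12.01 reads.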
